A study of Homo sapiens with 4 samples.

Results

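The interleukins of the senescence secretome comprised 10 genes of 59050 in the counts: the IL-6 family ligands IL6, IL11 and LIF, the receptor chains IL6R and IL6ST, the IL-1 family ligands IL1A, IL1B and IL18, and IL24 and IL32. They were taken by gene name from a list of interleukins, related cytokines and receptors. The cells were RCC4, an established line of human clear cell renal cell carcinoma (ccRCC), in which an inducible shRNA against PML (shPML#1, here shPML) or a scrambled hairpin (shCtrl) was expressed. Doxycycline was given at 100 ng/ml for 96 h to both groups, so the control cells carried a hairpin and the drug as well. There were 2 shPML and 2 shCtrl libraries, 1 of each from each of 2 experiments with independent lentiviral infections (replicates 1 and 2). A single hairpin and a single cell line stand behind every value, and RNA rather than secreted protein was measured.

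Senescent cells release a mixture of cytokines, chemokines and proteases known as the senescence-associated secretory phenotype. IL-1 alpha and IL-1 beta act early in this program through the IL-1 receptor and NF-kB, and they induce IL-6 and chemokines in the same cell and in its neighbors. IL-6 and IL-11 each bind a receptor chain of their own, and LIF binds the LIF receptor. All of them signal through the shared chain gp130, encoded by IL6ST, to JAK kinases and STAT3. IL-1 beta and IL-18 are made as precursors that caspase-1 cleaves in inflammasomes, and in the immune system they come mainly from monocytes and macrophages.

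Promoter sequences are given for the 4 ligand genes whose counts moved furthest apart or that define the program, so that motifs of AP-1, C/EBP and NF-kB can be read beside the values. Each runs from 250 bases before to 50 bases after the start annotated by RefSeq on GRCh38.p14, 5′ to 3′ on the strand of the gene. Capitals mark a match on either strand to the AP-1 motif TGANTCA, the C/EBP motif TTGCNNAA or the NF-kB consensus, which 7.71%, 10.5% and 14% of 35116 promoters of this length held.
IL1A, chr2:112784444-112784743, minus strand: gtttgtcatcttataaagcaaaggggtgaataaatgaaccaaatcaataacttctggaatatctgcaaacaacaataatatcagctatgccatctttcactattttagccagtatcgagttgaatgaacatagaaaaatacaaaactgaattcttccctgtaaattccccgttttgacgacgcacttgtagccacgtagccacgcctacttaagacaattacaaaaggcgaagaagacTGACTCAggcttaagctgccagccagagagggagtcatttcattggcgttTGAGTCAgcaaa
IL1B, chr2:112836730-112837029, minus strand: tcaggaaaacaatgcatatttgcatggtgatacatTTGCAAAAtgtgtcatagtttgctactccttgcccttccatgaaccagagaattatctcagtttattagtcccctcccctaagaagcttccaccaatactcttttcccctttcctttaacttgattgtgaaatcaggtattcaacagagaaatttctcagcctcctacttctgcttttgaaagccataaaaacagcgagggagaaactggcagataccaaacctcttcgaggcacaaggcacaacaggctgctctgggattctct
IL6, chr7:22726950-22727249, plus strand: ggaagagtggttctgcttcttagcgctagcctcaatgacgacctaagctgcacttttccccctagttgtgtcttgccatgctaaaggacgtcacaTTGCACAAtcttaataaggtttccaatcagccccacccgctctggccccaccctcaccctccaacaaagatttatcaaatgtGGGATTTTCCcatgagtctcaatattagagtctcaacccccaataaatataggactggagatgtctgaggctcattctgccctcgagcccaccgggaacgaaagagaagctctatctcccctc
IL11, chr19:55370414-55370713, minus strand: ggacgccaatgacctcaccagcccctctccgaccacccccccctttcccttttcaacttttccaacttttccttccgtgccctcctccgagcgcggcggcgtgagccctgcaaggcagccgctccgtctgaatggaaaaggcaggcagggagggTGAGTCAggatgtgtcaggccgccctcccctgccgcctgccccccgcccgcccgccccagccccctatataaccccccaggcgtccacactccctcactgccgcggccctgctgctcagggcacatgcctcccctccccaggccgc
IL1A held the AP-1 motif at -12 and 38 bases from the start, and IL11 held it at -96. IL6 held a C/EBP motif at -155 and an NF-kB motif, GGGATTTTCC, at -73, and IL1B a C/EBP motif at -215. Entries were at hand for 8 of the 10 genes, and none was at hand for IL18 and LIF. A second start of IL1A held the same AP-1 motifs, while IL6R held AP-1 at 37, IL6ST held NF-kB at -53, 1 of the 2 starts of IL32 held NF-kB at -99 and -98, and IL24 held none of the 3. These matches are letters in a window and not measured binding.

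The libraries held between 27781193 and 69870617 counted reads, so that 3 reads, the limit that a count of 0 allows, corresponded to 0.0418 to 0.109 CPM. CPM here is the count scaled to library size after TMM normalization. PML was lower in shPML in both experiments, at 54.9 CPM against 93.1 CPM in replicate 1 and 87.6 CPM against 136 CPM in replicate 2. All 9 renal carcinoma markers examined were detected, with PAX8, a transcription factor of the renal lineage, at 302 to 427 CPM.

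The shPML library of replicate 2 stood apart, because it alone held abundant RNA of leukocyte markers. The summed level of 15 such markers was 279 CPM in that library and 2.64 to 3.58 CPM in the other 3. It was the highest library for 11 of the 15, and for 9 of these it lay at least 10 times above the next. Myeloid genes led the list, with LYZ (lysozyme) at 85.4 CPM against at most 0.0739 CPM elsewhere, LAPTM5 at 57.6 CPM and CD14, a coreceptor of monocytes, at 42.8 CPM. Among lymphoid markers, CD3E, CD3D and MS4A1 were at 0 reads in every library, whereas NKG7, a gene of NK and cytotoxic T cells, had 219 reads (7.96 CPM) in that library and 0 in the others. Several interleukins are made by myeloid cells, and the part of this RNA in the results below was not tested. In replicate 1 the sum was low but the markers were not absent, at 2.64 CPM in shCtrl and 3.58 CPM in shPML. LAPTM5 and ITGAM had more reads in shPML of replicate 1 (33 against 4 and 172 against 58), and CSF1R fewer (11 against 59). The values or ratio of replicate 1 are given beside those of replicate 2.

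**Figure D1:**
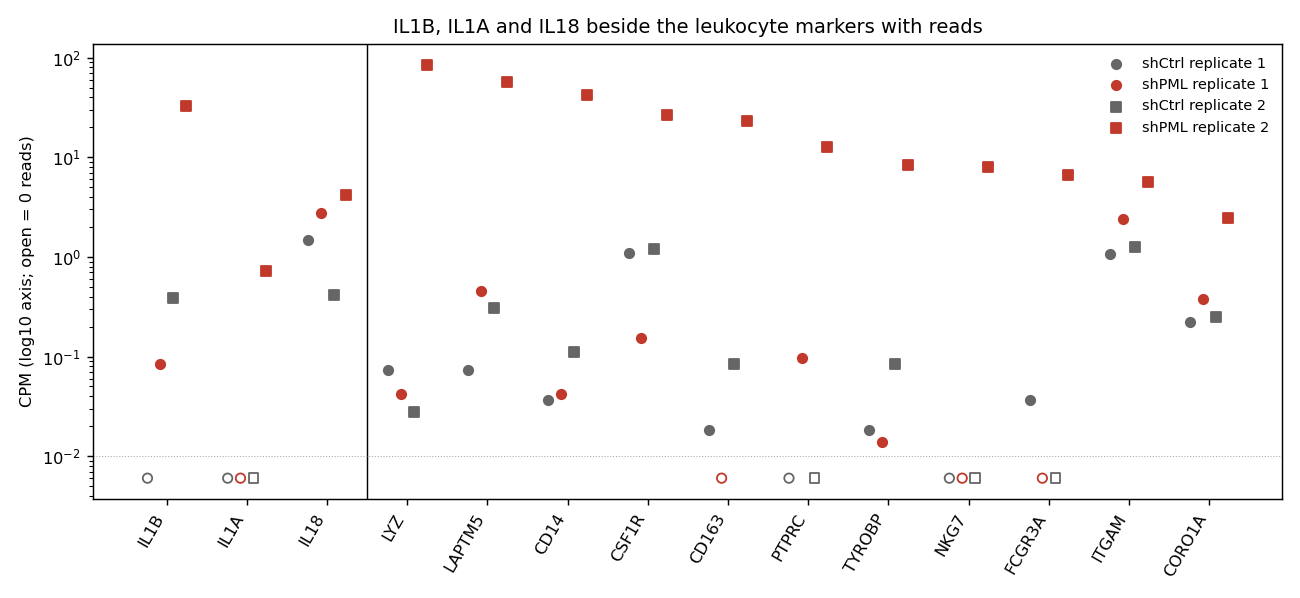
CPM on a log10 axis of IL1B, IL1A and IL18 (left of the line) and of the 11 leukocyte markers with reads in any of the 4 libraries; open symbols mark 0 reads. The shPML library of replicate 2 is the highest for IL1B, IL1A and IL18 and for all 11 markers.

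Of the 10 genes, 8 had enough reads to be tested, while IL1A and IL24 had too few. In the fit of shPML against shCtrl without a block, 0 of the 8 passed an adjusted p under 0.05 with a log2 fold change beyond 0.5 (quasi-likelihood test of edgeR), and 4 had an unadjusted p under 0.05. This fit called 0.0787% of the 16516 genes higher and 0.333% lower, and no gene had an adjusted p below 0.0484. With the experiment as a block, 4 of the 8 were called higher (IL1B, IL18, IL6R and IL6ST) and 1 lower (IL11), where 8.57% of all genes were called higher and 10.5% lower. PML, the silenced gene, was not called by edgeR without the block (log2 fold change -0.69, adjusted p = 0.32). It was called lower with the block (-0.70, adjusted p = 4.2e-07). The median log2 fold change was 0.42 over the 8 genes and 0.00 over all genes tested in the fit with the block.
Direction was the same in both experiments for all 8, with 6 higher and 2 lower in shPML, although IL1B in replicate 1 rests on 6 reads. The share of all genes with the same direction in both experiments was not computed. Both shPML libraries lay above both shCtrl libraries for IL6, IL6R, IL6ST and IL18, and below them for IL11 and LIF, against 23.1% and 24.9% of all genes. In replicate 1 alone, where no test is possible, 4 of the 8 lay beyond a log2 ratio of 0.5 upward (IL6R, IL6ST, IL18 and IL1B, the last on 6 reads against 0) and IL11 downward, beside 14.7% and 18% of all genes. In bulk RNA, fewer cells expressing a gene cannot be told apart from less of its RNA per cell.

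**Figure D2:**
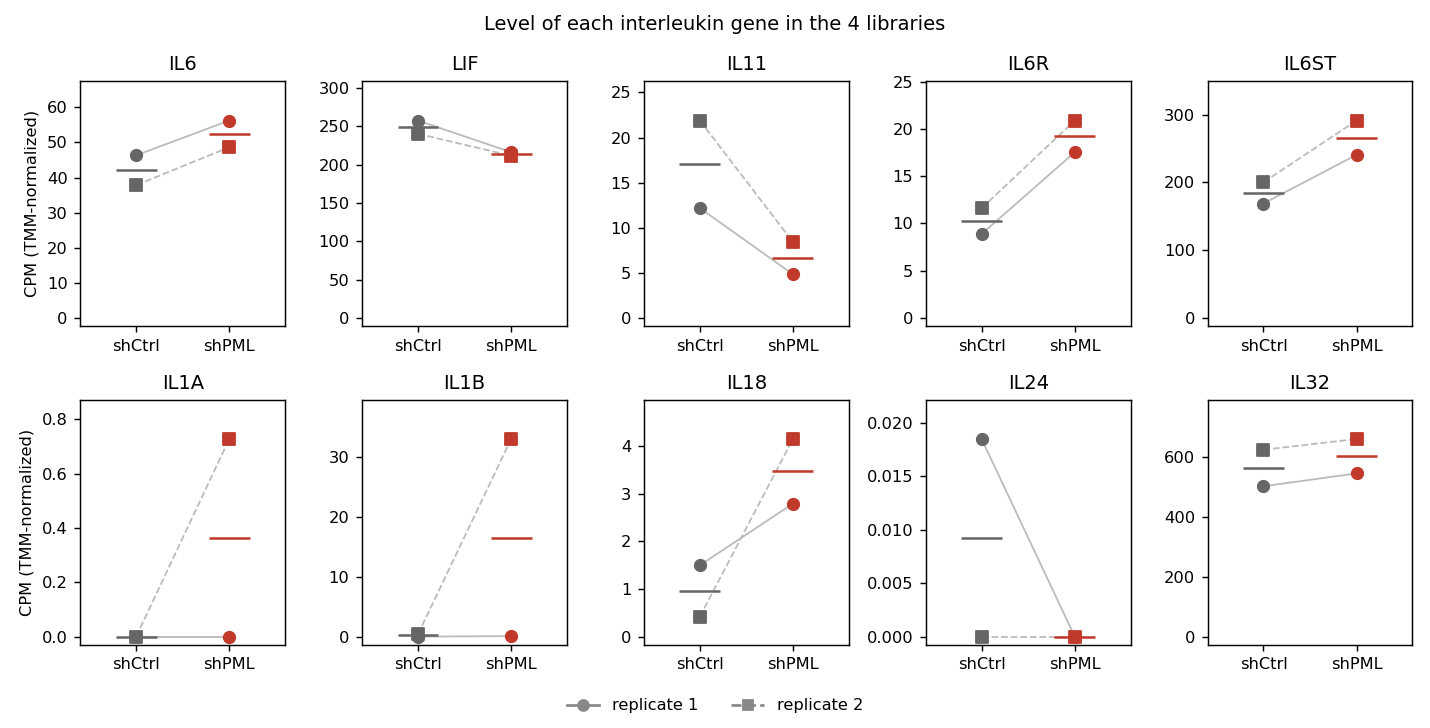
CPM (linear axes, each from 0) of the 10 genes in shCtrl (grey) and shPML (red) libraries; circles and solid lines are replicate 1, squares and dashed lines replicate 2, and bars are group means of 2 libraries. IL6R and IL6ST are higher and IL11 is lower in shPML in both experiments, whereas IL1B and IL1A are high only in the shPML library of replicate 2.

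IL6, the classical cytokine of the senescence secretome, lies on chromosome 7 from 22725884 to 22732002. Its level was 46.4 and 37.8 CPM in shCtrl and 56.2 and 48.7 CPM in shPML of replicates 1 and 2. Both shPML libraries were above both controls, although the lower shPML library exceeded the higher control by a small margin. The ratio of shPML to shCtrl was 1.21 (95% counting interval 1.15 to 1.28) in replicate 1 and 1.29 (1.19 to 1.39) in replicate 2. edgeR gave a log2 fold change of 0.32 (standard error, SE, 0.18, adjusted p = 0.444), and it was 0.32 (SE 0.118, adjusted p = 0.0326) with the block, which fell short of the fold required for a call. The counting intervals cover counting error only, here and below. IL6 shares 428 exon bases with AC073072.1, a gene on the opposite strand with 57 to 217 reads, and the strand setting of the counting is not known.

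IL11, which signals through its own receptor chain and gp130, went the other way. It lies on chromosome 19 from 55364382 to 55370463, and it was at 12.2 and 21.9 CPM in shCtrl and 4.85 and 8.44 CPM in shPML. Each shPML library was below both controls, and the level of replicate 2 was 1.79 times that of replicate 1 in shCtrl and 1.74 times in shPML. Within the experiments the ratio was 0.398 (0.349 to 0.454) and 0.385 (0.332 to 0.447), nearly equal despite the difference in level. edgeR gave a log2 fold change of -1.37 (SE 0.402, adjusted p = 0.176), and -1.35 (SE 0.166, adjusted p = 1.1e-09) with the block. The fall in replicate 1 was nearly as large as in replicate 2.

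LIF, a ligand of the LIF receptor and gp130, lies on chromosome 22 from 30240453 to 30246759. It was among the abundant transcripts, with 257 and 240 CPM in shCtrl and 216 and 212 CPM in shPML. The 2 groups did not overlap, but they were close. The ratio was 0.84 (0.821 to 0.859) in replicate 1 and 0.881 (0.852 to 0.911) in replicate 2. The log2 fold change of -0.22 did not pass the test either without the block (adjusted p = 0.532 from edgeR) or with it (SE 0.0982, adjusted p = 0.0888). It shares 86 exon bases with LIF-AS1, an antisense gene with 12 to 24 reads in a library. Among the 3 ligands of the gp130 family, IL11 was the 1 called with the block.

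IL6R, the chain that binds IL-6 and can be shed to act on cells that lack it, lies on chromosome 1 from 154405193 to 154469450. Its level was 8.89 and 11.6 CPM in shCtrl and 17.5 and 20.9 CPM in shPML. The groups were well separated. The ratio was 1.97 (1.77 to 2.20) in replicate 1 and 1.80 (1.58 to 2.04) in replicate 2. edgeR gave a log2 fold change of 0.91 (SE 0.222, adjusted p = 0.129), and 0.91 (SE 0.15, adjusted p = 1.3e-06) with the block.

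IL6ST encodes gp130, the signal-transducing chain that IL-6, IL-11 and LIF share, on chromosome 5 from 55935095 to 55994964. It was at 169 and 200 CPM in shCtrl and 241 and 291 CPM in shPML, with no overlap between groups. The ratios were 1.43 (1.39 to 1.46) and 1.45 (1.41 to 1.50) in replicates 1 and 2, the closest pair among the genes called. Without the block the log2 fold change was 0.53 (adjusted p = 0.229 from edgeR), and with it 0.53 (SE 0.0985, adjusted p = 1.8e-05), just beyond the fold required. AC008914.1, on the opposite strand, shares 797 exon bases with IL6ST and had 0 to 81 reads in a library, against at least 7210 reads of IL6ST.

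**Figure D3:**
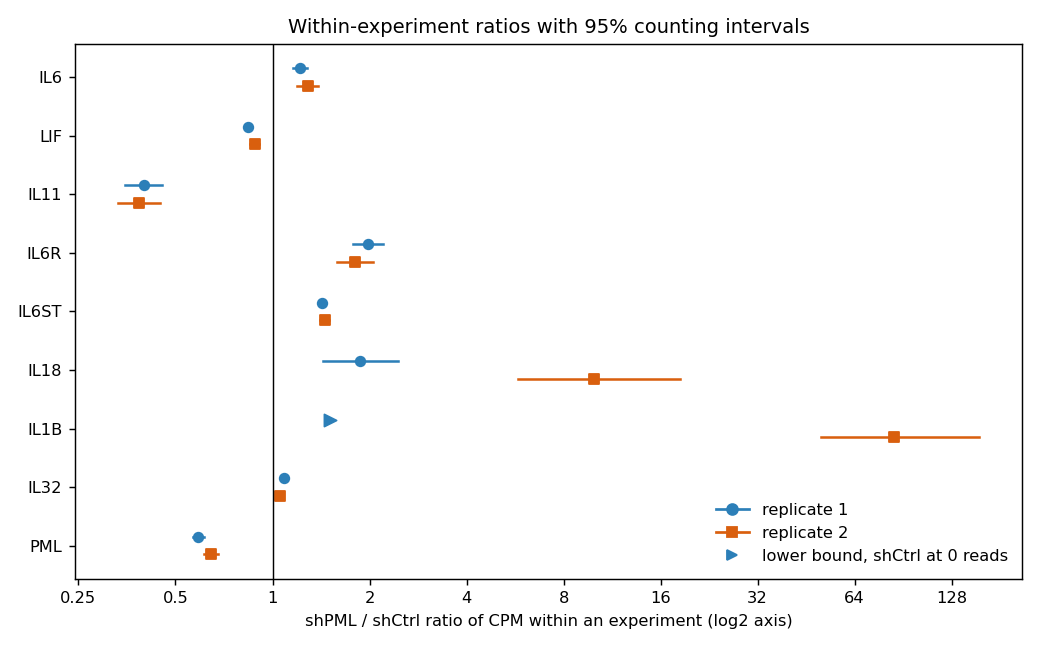
Ratio of shPML to shCtrl CPM (log2 axis) within replicate 1 (circles) and replicate 2 (squares) for the 8 tested genes and PML; bars are exact 95% counting intervals and the triangle is a lower bound. The intervals of the 2 experiments overlap for IL6, IL11, IL6R, IL6ST, LIF and IL32, and lie apart for IL18, and PML is below 1 in both.

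The other receptor chains of the family did not move as one. Of 13 further IL-6 family cytokines and receptors, 10 were tested. With the block 2 were called higher and 1 lower, beside 8.57% and 10.5% of all genes. IL27RA, a receptor chain that pairs with gp130, was at 12.97 and 16.3 CPM in shCtrl and 25.2 and 26.0 CPM in shPML (log2 fold change 0.82 with the block). EBI3, the partner subunit of IL-27, had a log2 fold change of 0.56 with the block, with log2 ratios of 0.51 and 0.61 in replicates 1 and 2. OSMR, the oncostatin M receptor chain that pairs with gp130, fell with the block, from 137 and 133 CPM in shCtrl to 87.8 and 68.9 CPM in shPML (log2 fold change -0.79). LIFR, the partner of gp130 for LIF, was at 8.28 and 6.61 CPM in shCtrl and 4.85 and 6.22 CPM in shPML and was not called. IL11RA, the receptor chain for IL-11, was low, at 0.536 and 0.583 CPM in shCtrl (29 and 21 reads). It was at 1.24 and 1.16 CPM in shPML (89 and 32 reads), and the groups did not overlap. The ratio was 2.32 (1.51 to 3.66) in replicate 1 and 1.995 (1.12 to 3.64) in replicate 2. IL11RA was not called with the block (log2 fold change 1.11, SE 0.55, adjusted p = 0.127 from edgeR). OSM, the ligand oncostatin M, reached 2.36 CPM in the shPML library of replicate 2 and at most 0.0837 CPM elsewhere, the pattern of the leukocyte markers.

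IL1B encodes IL-1 beta on chromosome 2 from 112829751 to 112836903. It was at 0 and 0.389 CPM in shCtrl (0 and 14 reads) and at 0.0837 and 33.0 CPM in shPML (6 and 908 reads). A single library, the shPML library of replicate 2, was high, and the groups overlapped because shPML of replicate 1 was below shCtrl of replicate 2. In replicate 2 the ratio was 84.9 (50.3 to 156). In replicate 1 the observed shPML level was 1.51 times the limit of 3 reads in shCtrl, leaving out the counting error of the 6 shPML reads. The lower end of the exact interval of the ratio was 0.889, which does not exclude equal levels. edgeR gave a log2 fold change of 6.58 (SE 2.67, adjusted p = 0.287), 6.38 (SE 0.386, adjusted p = 5.5e-21) with the block, and -1.13 without the block when that library was left out. The call of IL1B therefore rests on the library with leukocyte RNA, whose part in it was not tested.

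IL1A, which encodes IL-1 alpha on chromosome 2 from 112773915 to 112784590, had 0 reads in 3 libraries and 20 reads (0.727 CPM) in the shPML library of replicate 2. That observed level is 8.73 times the limit of 3 reads in shCtrl of the same experiment, and the lower end of the exact interval of the ratio was 6.46. No RNA of IL1A was detected in either library of replicate 1, which allows up to 0.0554 CPM in shCtrl and 0.0418 CPM in shPML. It was not tested, and the 20 reads again came from the library with leukocyte markers.

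IL18, on chromosome 11 from 112143253 to 112164094, encodes a cytokine that drives interferon gamma in T and NK cells. It was at 1.50 and 0.417 CPM in shCtrl (81 and 15 reads) and 2.79 and 4.15 CPM in shPML (200 and 114 reads). Both shPML libraries were above both controls, but the controls themselves differed, with shCtrl of replicate 2 at 0.278 times that of replicate 1. The ratio was 1.86 (1.43 to 2.44) in replicate 1 and 9.95 (5.79 to 18.4) in replicate 2, and these counting intervals did not overlap. edgeR gave a log2 fold change of 1.83 (SE 0.659, adjusted p = 0.243), and 1.95 (SE 0.437, adjusted p = 0.000283) with the block. The interval of IL18 lay above 1 in both experiments, and the part of leukocyte RNA in either ratio was not tested.

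Both receptors that bind IL-1 were lower in shPML, and the fit with the block called them. Of 10 receptors and inhibitors of IL-1 and IL-18, 7 were tested. With the block 2 were called lower and 1 higher, beside 10.5% and 8.57% of all genes. IL1R1, the signaling receptor of IL-1, was at 20.5 and 27.5 CPM in shCtrl and 10.0 and 11.1 CPM in shPML (log2 fold change -1.17 with the block). IL1R2, the decoy receptor that binds IL-1 without signaling, was at 7.56 and 7.25 CPM in shCtrl and 1.79 and 2.65 CPM in shPML (-1.78). SIGIRR, an inhibitory receptor of the family, was at 10.4 and 10.9 CPM in shCtrl and 21.4 and 35.4 CPM in shPML (1.36). For each of these 3 genes the groups did not overlap and both experiments went the same way.
IL1RAP, the accessory chain of the IL-1 receptor, and IL18BP, the soluble inhibitor of IL-18, had log2 fold changes of 0.46 and 0.41 with the block, below the fold required. The log2 ratios of replicates 1 and 2 were 0.60 and 0.32 for IL1RAP and 0.25 and 0.58 for IL18BP. IL18R1 was at 1.75 to 3.09 CPM in all libraries, and IL18RAP, its partner chain, had reads only in shCtrl of replicate 1 (0.111 CPM). IL1RN, the receptor antagonist, went in opposite directions, at 1.26 and 0.126 CPM in shCtrl and shPML of replicate 1 and at 0.389 and 3.64 CPM in replicate 2, where the library with leukocyte RNA was the highest. Among 7 other cytokines of the IL-1 family, IL33 included, 5 had 0 reads in every library and IL36B, the 1 tested, was not called.

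Several genes for the processing and release of IL-1 and IL-18 had few or no reads. CASP1, which encodes caspase-1, had 0 CPM in both shCtrl libraries, 0.209 CPM in shPML of replicate 1 and 2.07 CPM in shPML of replicate 2. PYCARD, the inflammasome adaptor ASC, was at 0.145 CPM at most, and CASP5 had 0 reads in every library. With the block, 2 of 10 tested genes of this list of 16 were called, both higher, beside 8.57% of all genes. NLRP1, an inflammasome sensor, was at 43.7 and 19.7 CPM in shCtrl and 68.1 and 60.3 CPM in shPML (1.10). CASP4, the caspase that senses cytosolic lipopolysaccharide, was at 33.2 and 25.8 CPM against 54.8 and 39.1 CPM (0.67).
Downstream of the IL-1 receptor, 12 of 14 signaling genes were tested and 2 were called higher with the block, beside 8.57% of all genes. IRAK2, a kinase of the IL-1 receptor complex, was at 14.3 and 13.9 CPM in shCtrl and 37.6 and 37.7 CPM in shPML. Its log2 fold change was 1.42 with the block, and it was the 1 gene of all lists called without the block (adjusted p = 0.0484 from edgeR). MYD88, the adaptor of the receptor, had a log2 fold change of 2.21 with the block, with 1.39 against 2.65 CPM in replicate 1 and 0.472 against 6.58 CPM in replicate 2, where the shPML library held leukocyte RNA.

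IL32, a proinflammatory cytokine without a mouse counterpart, lies on chromosome 16 from 3065297 to 3069819 and had the highest level per length of the 10. It was at 503 and 625 CPM in shCtrl and 546 and 661 CPM in shPML. The groups overlapped, since shCtrl of replicate 2 exceeded shPML of replicate 1. Ratios of 1.09 and 1.06 were found within the experiments, with an edgeR log2 fold change of 0.10 (SE 0.192, adjusted p = 0.868), or 0.10 (SE 0.0927, adjusted p = 0.47) with the block.
IL24, an IL-20 subfamily cytokine on chromosome 1 from 206897443 to 206904139, had 1 read in shCtrl of replicate 1 and 0 reads in the other libraries. This is at or under the limit of 3 reads, so no comparison is possible at this depth. Its receptor chains IL20RA and IL22RA1 were at 0.667 CPM or less in every library, and IL20RB was at 1.08 to 2.46 CPM and was not called. Of 11 IL-10 and IL-20 family genes 2 were tested. IL10RA was the 1 called with the block, higher, beside 8.57% of all genes. It was at 1.14 to 1.62 CPM in 3 libraries and at 17.4 CPM in the library with leukocyte RNA.

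Levels can be ranked between genes per kilobase of exon. In shCtrl the order was IL32 at 335 CPM per kilobase, LIF at 64.3, IL6 at 24.6, IL6ST at 20.4, IL11 at 7.17, IL6R at 1.70, IL18 at 0.837 and IL1B at 0.119, followed by IL24 and IL1A at or near 0. In shPML it was IL32 at 358, LIF at 55.3, IL6 at 30.6, IL6ST at 29.4, IL1B at 10.1, IL6R at 3.19, IL18 at 3.03, IL11 at 2.79 and IL1A at 0.171. IL6 and IL6ST in either group, and IL6R, IL18 and IL11 in shPML, were neighbors within the spread of the libraries. The place of IL1B in shPML comes from the library of replicate 2 alone.
For the 3 most abundant genes, the genes with the most similar pattern over the 4 libraries were sought by the distance between centred log2 CPM. RBM10, TIMM44 and ZNF654 lay nearest to IL32 (distance 0.0182 for RBM10), PLAA, ZNF845 and FTO to LIF (0.0148 for PLAA) and PNPLA4, AREL1 and NDUFA13 to IL6 (0.0397 for PNPLA4). With 4 libraries such patterns are common, as 689, 962 and 636 genes lay within a distance of 0.2 of IL32, LIF and IL6.

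The response genes of IL-1 and NF-kB form the largest group called. Of 20 listed genes 18 were tested, and 11 were called higher and 0 lower with the block, beside 8.57% and 10.5% of all genes. Median log2 ratios of these 18 were 0.68 and 0.69 within replicates 1 and 2, and the part of leukocyte RNA in them was not tested. SOD2, the mitochondrial superoxide dismutase, was at 469 and 496 CPM in shCtrl and at 1068 and 1122 CPM in shPML (log2 fold change 1.18 with the block). CXCL8, the neutrophil chemokine IL-8, was at 19.0 and 24.1 CPM in shCtrl and 35.0 and 101 CPM in shPML (1.47). The groups did not overlap for either gene. The chemokine CXCL3 was called at lower levels, with 0.61 and 0.972 CPM in shCtrl and 1.31 and 5.09 CPM in shPML (1.75). CCL20, a chemokine for lymphocytes and dendritic cells, was called on few reads, with 0.0739 and 0.0278 CPM in shCtrl and 0.6 and 0.946 CPM in shPML. ICAM1, an adhesion molecule, was at 266 and 280 CPM in shCtrl and 427 and 443 CPM in shPML (0.67). All of the 11 but CCL2, a monocyte chemokine, were higher in shPML in replicate 1 as well. CCL2 was at 0.998 CPM in shCtrl against 0.697 CPM in shPML of replicate 1, and at 1.47 against 13.3 CPM in replicate 2, where the shPML library held leukocyte RNA. With the block, 14 of the 18 had a positive log2 fold change. The other genes tested, TNF, CSF2, TNFAIP2 and NFKB1, were negative and not called. TNF was at 1.27 and 1.33 CPM in shCtrl and 0.67 and 0.837 CPM in shPML.

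**Figure D4:**
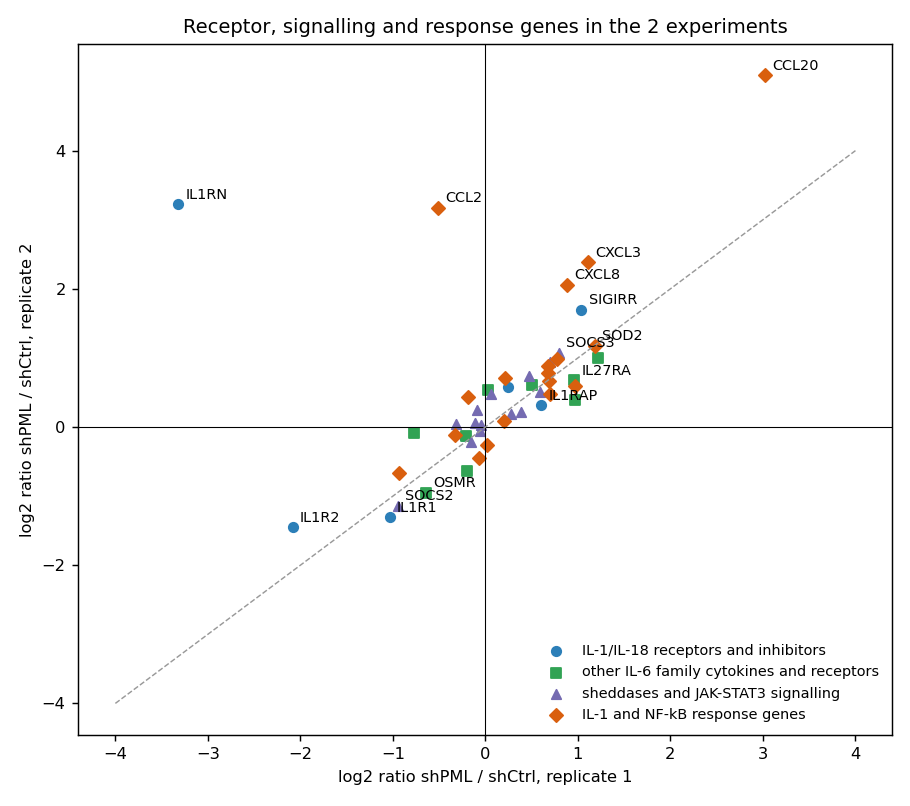
Log2 ratio of shPML to shCtrl in replicate 1 (x axis) and replicate 2 (y axis) for tested receptor, signaling and response genes with reads in all 4 libraries; the dashed line marks equal ratios. IL1R1, IL1R2, OSMR and SOCS2 are low and SOD2, CXCL8 and SIGIRR high in both, while IL1RN and CCL2 are high in replicate 2 only.

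Genes downstream of gp130 were mixed. STAT3, the main transcription factor of the pathway, was at 121 and 137 CPM in shCtrl and 116 and 132 CPM in shPML and was not called, and ADAM17, the protease that sheds IL6R, had a log2 fold change of 0.24 with the block (0.28 in replicate 1) and was not called. Of 15 sheddase and JAK-STAT3 genes 14 were tested. With the block 3 were called higher and 1 lower, beside 8.57% and 10.5% of all genes. SOCS3 (0.93) and JAK1 (0.55, with 0.59 in replicate 1) were among the 3, and SOCS2 (-1.04, with -0.95 in replicate 1) was the 1 lower. SOCS3, a feedback inhibitor of gp130 signaling, was at 16.3 and 22.1 CPM in shCtrl and 28.3 and 46.6 CPM in shPML. Of 20 STAT3 and acute phase response genes 13 were tested. Beside the same shares of all genes, 1 was called higher, JUNB (0.92, with 0.73 in replicate 1), and 3 lower. These were SAA1, an acute phase protein, at 7.11 and 5.39 CPM in shCtrl and 2.62 and 2.55 CPM in shPML (-1.27), the kinase PIM1 (-0.87, with -0.81 in replicate 1), and LBP, a lipopolysaccharide binding protein near the detection limit (at most 0.417 CPM).
Among 17 transcription factors and RNA-binding proteins that act on interleukin genes, 16 were tested. With the block 4 were called higher and 1 lower, beside 8.57% and 10.5% of all genes. CEBPB, a regulator of IL6, was at 15.1 and 40.2 CPM in shCtrl and 26.0 and 82.1 CPM in shPML. FOS, a subunit of AP-1, had a log2 fold change of 2.09 with the block, with log2 ratios of 0.92 in replicate 1 and 3.39 in replicate 2, where the shPML library held leukocyte RNA. ZFP36, which destabilizes cytokine mRNAs, likewise had 0.72 in replicate 1 and 1.54 in replicate 2 (1.13 with the block). ATF3 had closer ratios, 0.69 and 0.78 (0.73). CEBPA fell with the block (-1.44), from 9.61 and 11.4 CPM to 2.97 and 5.06 CPM. RELA, the NF-kB subunit, was at 108 to 144 CPM in all libraries and was not called.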

How the data were processed

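RNA of RCC4 cells was measured in 2 shCtrl and 2 shPML libraries. From stranded mRNA libraries, the authors obtained single-end reads, which passed through Trimmomatic 0.39, alignment to GRCh38 with STAR and gene-level counting with featureCounts 1.6.4. What was deposited is the raw count of each gene, not normalized. Neither the number of the Gencode release nor the strand setting is given in the sources used here. The shCtrl and shPML columns without a number were taken as replicate 1. The submitters corrected swapped labels of 2 samples, and the corrected labels were used.

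Genes were filtered with filterByExpr, scaled by TMM and compared in edgeR 4.0.16 (R 4.3.3) by its quasi-likelihood test, with Benjamini-Hochberg adjustment over all 16516 genes tested. Calls required both an adjusted p under 0.05 and a change of more than 0.5 on the log2 scale. The fit had no block, and a fit with the experiment as a block is given beside it. The replicate 1 libraries deviated from their group means with a correlation of 0.546 across genes, and the common dispersion was 0.0813 without and 0.0137 with the block. With only 2 pairs, this reading of the replicate numbers as experiments rests on the design described for the study. An exact two-sided permutation test cannot go below 0.333 with 2 libraries against 2. Ratios within an experiment have exact (Clopper-Pearson) 95% intervals, and a count of 0 was bounded at 3 reads. The fits were tested on simulated data.

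The genes, the 12 lists and the rule for named genes were chosen with earlier results of these data known. The rule took all 10 genes and PML, the receptors and regulators of these cytokines, up to 3 genes of each list called with the block, with separate groups and the largest change, and the 3 genes nearest in pattern to the 3 members with the highest level per length. Other genes named, SOD2, ICAM1, CCL2, MYD88, IL10RA, CEBPB, RELA, PYCARD, CASP5, IL33, IL36B and OSM among them, were chosen after their values were seen. Some genes of the lists are counted in them but not reported here as single results. Alternatives were DESeq2 1.42.0, other scalings and filters, other thresholds and each library left out in turn.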

Additional observations from a re-analysis of the deposited data

How the results depend on the processing

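Without a block, 0 of the 10 genes were called higher and 0 lower, 68 genes in all were called and 1 gene of the lists. The replicate block in edgeR gave 4 higher, 1 lower, 3150 in all and 40 list genes. DESeq2 gave 1 higher, 1 lower, 1390 in all and 30 list genes without a block, and 4, 1, 2295 and 33 with a replicate block. No filter on low counts gave 4 higher, 1 lower, 1837 in all and 44 list genes; these 4 were IL1B, IL6R, IL18 and IL1A, the last on 20 reads in 1 library (adjusted p = 0.0345 from edgeR), and not IL6ST. Scaling by RLE gave 0 genes in all and 0 list genes, and at least 10 counts in every library gave 197 and 2. Leaving out 1 library each gave 0 to 1 higher, 0 to 248 in all and 0 to 15 list genes, where the 1 was IL1B and the 248 and 15 came without shPML replicate 1. Such fits hold 1 library in a group, which is assumed to vary like the other group.

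Alternatives chosen after seeing the data kept 4 higher and 1 lower with the block and no filter (3249 in all, 52 list genes), with the block and RLE (3091 and 40) and with the block and library size alone (3216 and 43). The replicate 1 libraries alone, with no test, gave 4 higher and 1 lower. Of the 4, IL1B passed because its shCtrl count was 0, against 6 reads in shPML, and its interval included equal levels.

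Over 127 pairs of a gene and an alternative, 124 kept the direction and 3 reversed, all 3 with a library left out. Alternatives that changed only the threshold reused the same fit, so the direction in their pairs could not change. The other alternatives refitted the same libraries and are not independent of each other. IL1B ranged from -1.13 to 12.71 and was negative without shPML replicate 2. IL32 ranged from -0.046 to 0.26 and was negative without shCtrl replicate 1 (-0.037) and without shPML replicate 2 (-0.046). IL1B could not be fitted at 10 counts in every library. Depth limits IL1A, IL24 and, in replicate 1, IL1B, which lie at or near 3 reads. Strand of the counting and a second hairpin were not examined here.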

Other observations

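Genes were counted that exceeded 10 CPM in 1 library and stayed under 0.5 CPM in the other 3, a cutoff chosen after seeing the data. The shPML library of replicate 2 had 26 such genes, and each of the other libraries had 0. IL1B was the fifth of the 26 by level and the 1 member among them. Beside LYZ, LAPTM5 and CD14 they included ADAMDEC1, a protease of macrophages and dendritic cells, at 28.3 CPM, the sialic acid receptor SIGLEC1 at 21.0 CPM, and MPEG1, a pore-forming protein of macrophages, at 18.0 CPM. SPI1, which encodes the myeloid transcription factor PU.1, was at 14.2 CPM there and at most 0.25 CPM elsewhere, and HLA-DRA was at 14.4 CPM. By the distance of centred log2 CPM over the 4 libraries, the 3 genes nearest to IL1B were SPI1, LAPTM5 and MMP9 (1.21, 1.72 and 2.28), and 0 genes lay within 0.2. IL1B was added to this comparison after its values were seen. A gene high in 1 library alone lies near others of that pattern, so the distance adds nothing to the pattern itself. The source of these reads was not tested.

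STAT5A, a transcription factor of cytokine signaling, was at 3.64 CPM in the same library and at most 0.0278 CPM in the other 3, and NLRC4 and IRAK3 were at 0.873 and 2.04 CPM there and at most 0.0139 CPM elsewhere. The level of CEBPD, JUNB and JUND differed between experiments in both groups. CEBPD was at 3.18 and 5.12 CPM in shCtrl and shPML of replicate 1 and at 23.9 and 29.9 CPM in replicate 2.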
